A study of Mus musculus with 6 samples.

Results

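The miRNAs described here are 18 3p strands encoded in the imprinted miRNA cluster of mouse chromosome 12, between the protein-coding genes Dlk1 and Dio3. They were chosen by name, and every ligated miRNA-target hybrid that carried one of them was taken. They accounted for 211 of 15680 hybrid reads (1.35%) and for 18 of the 298 miRNAs with a hybrid. Each of the 211 hybrids was a distinct sequence with 1 read.

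The hybrids came from AGO2 CLASH of P19 cells, a mouse embryonic carcinoma line derived from a teratocarcinoma. In CLASH, the AGO2 protein is crosslinked to RNA and purified, and the miRNA is ligated to the mRNA fragment bound by the same AGO2 molecule. Cells labelled WT carry Dicer (+/+), and cells labelled HM carry Dicer (HM/-). Dicer cuts the hairpin precursor of a miRNA, its RNase IIIb domain releasing the 5p strand and its RNase IIIa domain the 3p strand. Per the methods of the study, the HM cells are 1 clonal line with a hotspot mutation of the RNase IIIb domain on one allele and a frameshift on the other, so genotype and clone cannot be told apart. The study also states that this clone had silenced the chromosome 12 miRNAs at the level of transcription, and it left them out of much of its analysis. A difference between WT and HM in cluster hybrids therefore cannot be assigned to Dicer processing, and the source of the HM hybrids counted here was not tested. Each genotype had 3 libraries, which the labels call biological replicates.

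In mammals the cluster is expressed from the maternal chromosome, and its miRNAs are most abundant in the embryo, placenta and brain. A miRNA guides AGO2 to mRNAs mainly through its seed, bases 2 to 8 counted from the 5′ end, which pairs with a complementary site in the 3′ UTR. The cell type was checked on miRNAs: 22 strands of the miR-290 and miR-302 clusters, which mark pluripotent and embryonic carcinoma cells, gave 34.5% to 59.1% of the hybrid reads of a library. The markers of other cell types gave 14 reads, from miR-375-3p, miR-9-3p and miR-9-5p, or 0 to 0.241% of a library.

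All 18 mature sequences were matched by name in the RefSeq table of assembly GRCm38.p6, and all lay on the plus strand of chromosome 12. The seeds, in capitals, differed from one another in all 18. They are given in order along the chromosome, the first 4 apart from the rest, since those 4 had no HM hybrid. The first 4 lie within the span of Rtl1, a paternally expressed gene to which these hairpins are antisense, from chr12:109586368-109586387 for miR-665-3p to chr12:109594565-109594586 for miR-434-3p.
mmu-miR-665-3p: aCCAGGAGgcugaggucccu
mmu-miR-433-3p: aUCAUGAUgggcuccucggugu
mmu-miR-127-3p: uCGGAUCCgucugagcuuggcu
mmu-miR-434-3p: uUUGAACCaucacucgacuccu

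The other 14 begin 116 kb further on and lie within 33.6 kb, from chr12:109710225-109710246 for miR-411-3p to chr12:109743764-109743784 for miR-410-3p. Of these, miR-377-3p, miR-409-3p and miR-410-3p lie within the span of the noncoding gene Mirg.
mmu-miR-411-3p: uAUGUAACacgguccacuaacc
mmu-miR-323-3p: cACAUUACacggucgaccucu
mmu-miR-543-3p: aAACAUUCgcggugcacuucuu
mmu-miR-495-3p: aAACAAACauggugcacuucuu
mmu-miR-667-3p: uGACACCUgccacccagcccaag
mmu-miR-376b-3p: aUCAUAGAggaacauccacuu
mmu-miR-376a-3p: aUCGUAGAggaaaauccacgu
mmu-miR-300-3p: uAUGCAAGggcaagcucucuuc
mmu-miR-381-3p: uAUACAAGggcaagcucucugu
mmu-miR-668-3p: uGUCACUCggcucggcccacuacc
mmu-miR-485-3p: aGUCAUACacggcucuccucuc
mmu-miR-377-3p: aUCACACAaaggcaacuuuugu
mmu-miR-409-3p: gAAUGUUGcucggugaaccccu
mmu-miR-410-3p: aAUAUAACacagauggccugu
Several pairs resembled each other outside the seed. Aligned from the 5′ end, miR-300-3p and miR-381-3p were identical at 19 of 22 bases with a shared run of 16 bases, and miR-376a-3p and miR-376b-3p at 18 of 21. miR-543-3p and miR-495-3p were identical at 18 of 22 bases and shared a run of 12 bases. Which member of such a pair was bound is uncertain where a read does not cover the differing bases.

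Target pieces of 13 pairs are shown next, at most 30 bases each, because they carry the 2 kinds of match described further on. Of these pairs, 11 had 2 or more reads, and H3f3b and Zbtb37, with 1 read each, were chosen for the motif they hold. In the first set the capitals mark the complement of the miRNA seed. Of the 2 miR-376b-3p fragments on Lnpep, only 1 held it.
miR-543-3p on Klf6: catgcgcactgaGAATGTTagtgggtggga
miR-543-3p on Scarb2: gtggtgcactggGAATGTTggtgagggtaa
miR-543-3p on Mtch2: tgcacagaattatgggagaGAATGTTgatt
miR-485-3p on Lnpep: gaaaaatggaggtcccaaaGTATGACagat
miR-376b-3p on Lnpep: ttgaggttcacTCTATGAaaaatc
miR-376a-3p on Ube2k: agagaattaaaaaCTACGAaacacttttgt
In the second set the piece held no complement of bases 2 to 7, and the capitals mark its longest complement to any stretch of the miRNA.
miR-300-3p on Znrf2: aatGAGAGCTgcaggcttattcagccagga
miR-300-3p on Peg3: gGAAGAGAGCaacaatttagcatatatttg
miR-300-3p on H3f3b: tgggggAGAGAGCTTaagttgaagcggttt
miR-300-3p on Zbtb37: ctttGAGAGCTTttgttaactt
miR-485-3p on Ttc14: ccagggagagcgtGTGTATGAaaaggagga
miR-485-3p on Pcolce2: ggatattctagagtcgagtTGTATGAagat
miR-668-3p on Fam73a: tgaAGTGGGCtgcgttgattttaagagtga
The genome position of these pieces was not analysed here, since the table names the gene and not the coordinate.

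The libraries differed in depth, with 1621 to 2331 hybrid reads in WT and 1661 to 5341 in HM. Hybrids of 3p strands made up 701 to 1091 of these reads in WT and 1585 to 5113 in HM libraries. Within a genotype, a Monte Carlo chi-square test over miRNAs gave p = 0.0124 and p = 1e-04 for WT 3 against WT 1 and WT 2. The other 4 pairs gave permutation p-values of 0.12 to 0.383 in the same test. No cluster hybrid sequence occurred in more than 1 library. Over all miRNAs, 2 libraries of a genotype shared 20 to 34 sequences in WT and 44 to 109 in HM. At most this was 5.02% of the smaller library, for HM 1 and HM 2. The libraries were counted separately, with HM 1 and HM 2 as 1 replicate as an alternative.

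WT 1, WT 2 and WT 3 held 20, 26 and 19 cluster hybrids, and HM 1, HM 2 and HM 3 held 26, 78 and 42. As a share of 3p hybrids, this was 2.18%, 2.38% and 2.71% in WT and 1.64%, 1.53% and 1.57% in HM. The share was lower in every HM library than in any WT library, at 2.43% ± 0.266 in WT and 1.58% ± 0.0577 in HM (SD, n = 3 each). The difference was -0.846 percentage points (two-sided exact permutation test, p = 0.1, the smallest p that 3 against 3 libraries allow). As a share of all hybrids the order turned: 1.04%, 1.12% and 1.17% in WT against 1.57%, 1.46% and 1.5% in HM, a difference of 0.401 percentage points (exact permutation test, p = 0.1). The direction thus followed the denominator, and neither gives an absolute number of hybrids per cell. In a library made from many cells, fewer cells with a miRNA and less of it per cell cannot be told apart. For single libraries the 95% Wilson interval of the share of 3p hybrids was widest in WT 3, at 1.74% to 4.19%, and narrowest in HM 2, at 1.22% to 1.90%, which covers counting error only.

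**Figure D1:**
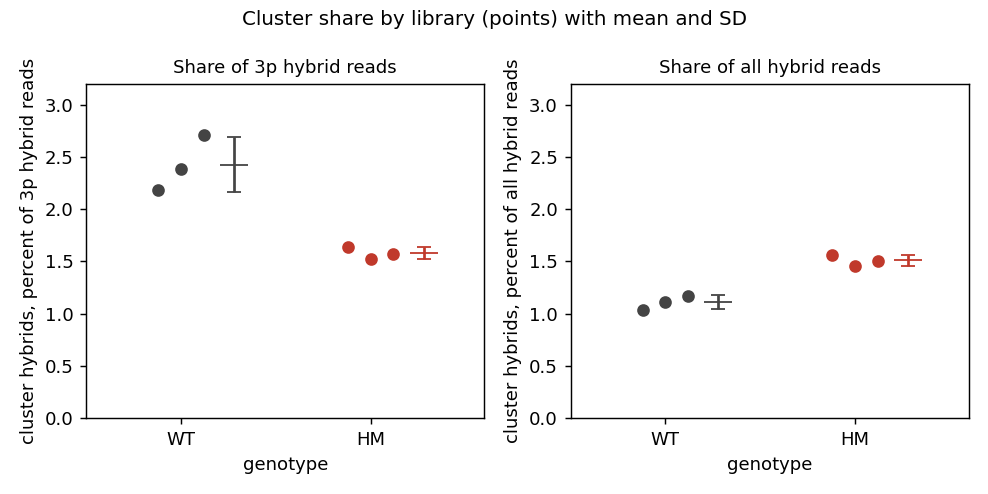
Share of cluster hybrids in each library, in percent of 3p hybrid reads (left) and of all hybrid reads (right), with WT in grey and HM in red. Points are libraries (n = 3 per genotype), and the bar beside them is the mean with SD. WT lies above HM on the left (2.43% against 1.58%) and under it on the right (1.11% against 1.51%).

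The hybrids were concentrated on few members. miR-300-3p had 38 reads, miR-376b-3p 32, miR-543-3p 24, miR-409-3p 19 and miR-323-3p 15, and the other 13 members had 2 to 11 reads each. Reads of miR-300-3p numbered 2, 2 and 4 across WT 1 to WT 3 and 3, 18 and 9 across HM 1 to HM 3. Those of miR-376b-3p were 4, 6 and 2 in the WT libraries and 4, 12 and 4 in the HM libraries. miR-543-3p had 2, 3 and 1 in the former and 1, 13 and 4 in the latter. For each of these, HM 2 held the most reads, and it was also the deepest library. Next came miR-409-3p, with 3, 1 and 1 reads in the WT libraries and 1, 8 and 5 in the HM libraries, and miR-323-3p, with 0, 0 and 2 against 3, 4 and 6. A library showed 10 to 13 of the 18 members.

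The 4 members nearest Dlk1 had hybrids in WT alone. Together, miR-665-3p, miR-433-3p, miR-127-3p and miR-434-3p were ligated 1, 8 and 3 times in WT 1, WT 2 and WT 3 and 0 times in each HM library. This was 12 of 2708 WT 3p hybrids (0.443%) against 0 of 9368 HM 3p hybrids. With a floor of 3 counts over the group, the HM count allows a share of up to 0.0320%. If the WT count is taken as exact, their share was at least 13.8-fold lower in HM. Counting error of the WT reads is not part of this bound or of those that follow, so the true fold could be smaller. WT 2 held 8 of the 12 reads, and the bound was 7.72-fold without it, 6.29-fold without HM 2 and 19.2-fold without WT 1 at the highest. The largest contribution was that of miR-127-3p, with 0, 3 and 2 reads in WT and 0 in HM, at least 5.77-fold lower over the groups, or 2.62-fold without HM 2, 3.86-fold without WT 2 and 8.71-fold without WT 1. The remaining member without an HM hybrid was miR-667-3p, which lies among the distal 14 and gave 1, 0 and 1 reads in WT. With it, the 5 members without an HM hybrid had 14 WT reads (0.517% of 3p hybrids). The grouping was made after the values were seen and is given without a test. Conversely, miR-410-3p and miR-668-3p had 0 WT reads and together 2, 5 and 5 HM reads (0.128% of 3p hybrids). A count of 0 in the WT libraries allows a share of up to 0.111%. The 14 distal members together made up 1.96% of 3p hybrids in WT and 1.56% in HM.

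**Figure D2:**
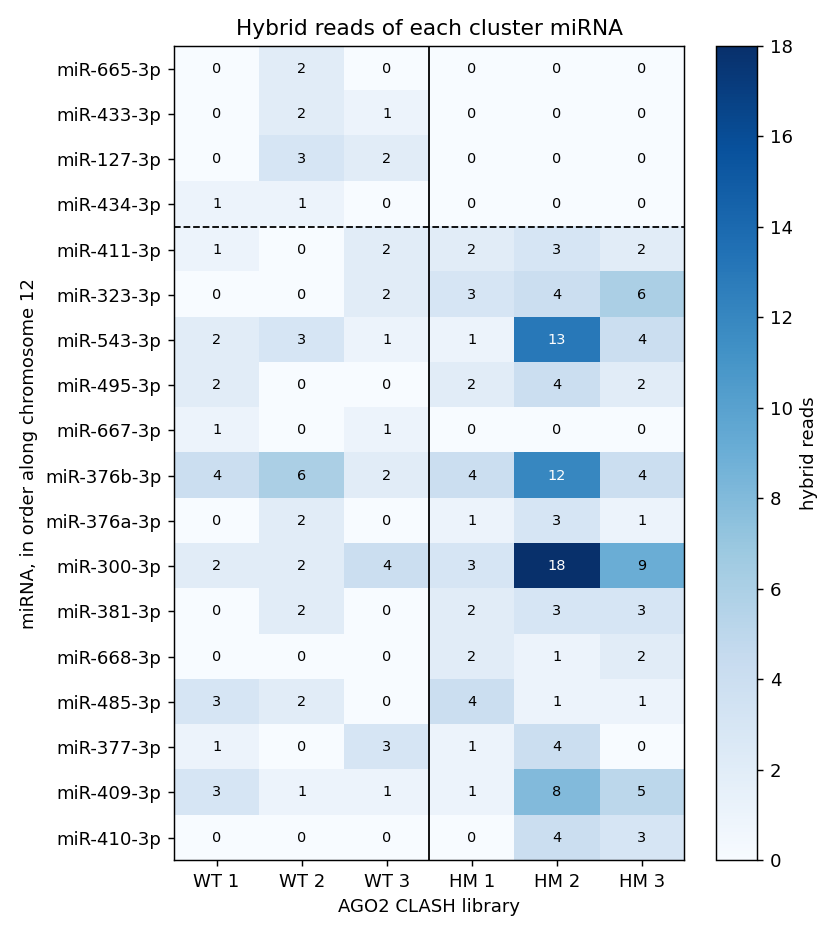
Hybrid reads of the 18 cluster miRNAs (rows, in order along chromosome 12) in the 6 libraries (columns); darker cells hold more reads. The dashed line separates the 4 members nearest Dlk1, which have 12 WT reads and 0 HM reads, from the 14 distal members, which have 53 and 146.

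Summed reads per miRNA were tested between genotypes with edgeR's quasi-likelihood test, with 3p hybrids as library size and Benjamini-Hochberg adjustment over all 94 miRNAs with at least 10 reads. Of these, 56 (59.6%) passed an adjusted p of 0.05. Of the 18 members, 9 reached 10 reads and 0 passed, with 0 also at an unadjusted p under 0.05, and DESeq2 gave 0 and 0. miR-376b-3p came nearest, with a log2 fold change (HM over WT) of -1.03 (SE 0.56, adjusted p = 0.0984 by edgeR). It was the only one of the 9 whose libraries did not overlap between genotypes, lower in HM, whereas 69.1% of tested miRNAs did not overlap and 47.9% were lower in HM without overlap. With all hybrids as library size its log2 fold change was -0.00 and its libraries overlapped. For miR-300-3p the log2 fold change was 0.09 (SE 0.58), for miR-543-3p -0.23 (SE 0.71) and for miR-485-3p -1.41 (SE 1.02), with the last at -2.58 without HM 1, -0.61 without HM 2 and -0.71 without WT 1. Over the 9 members, 5 log2 fold changes were below 0 and 4 above, with a median of -0.23, beside -0.72 over all tested miRNAs and 0.20 over the 58 tested 3p strands. With all hybrids as library size, 2 were below 0 and 7 above, with a median of 0.79 beside 0.33 over all tested miRNAs.

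miR-127-3p, whose 5 reads were below that minimum, passed when the minimum was 5 reads (log2 fold change -4.94, adjusted p = 0.0101 by edgeR). It reached that setting only through WT 2 and WT 3, with 3 and 2 reads, while WT 1 and each HM library had 0. The call was therefore not used as support for a difference. At that setting 48.9% of 141 miRNAs passed and 1 of 14 members did. With no minimum it passed with an adjusted p of 0.0100 by edgeR, when 23.8% of 298 miRNAs passed. miR-433-3p, with 0, 2 and 1 WT reads, had an adjusted p of 0.0664 by edgeR there.

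Further strands of the same region were counted from a wider list of 57 hairpins. Its other 13 3p strands had 4, 2 and 2 hybrids in the WT libraries, 2, 13 and 10 in the HM libraries, and each had an HM read. Its 8 5p strands had 13, 12 and 10 in the WT libraries but 0, 1 and 0 in the HM libraries, and 7 of the 8 had no HM hybrid. Among these were miR-411-5p, with 5, 5 and 7 WT reads, and miR-673-5p, with 6, 4 and 0. Hybrids outside the 3p strands were few in HM over all miRNAs. The 3p strands held 916 of 1929, 1091 of 2331 and 701 of 1621 reads in WT 1 to WT 3. In HM 1 to HM 3 they held 1585 of 1661, 5113 of 5341 and 2670 of 2797. The low 5p count in HM is thus not particular to this region.

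The 211 hybrids fell on 173 genes, 5.41% of the 3200 genes with any hybrid, as 184 miRNA-gene pairs. A single read supported 149 of the genes, 24 had 2 or more reads, and 19 were seen in 2 or more libraries. Of the 173 genes, 130 were also bound by miRNAs outside the list and 43 were not. On 19 genes another miRNA held the same site, defined as a shared stretch of 15 bases, with 129 reads. None of the pairs reached 10 reads, so 0 entered the test of pairs, in which 22 of 140 pairs (15.7%) passed. There were 16 pairs with 2 or more reads and 2 pairs with 5 or more.

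Klf6, a zinc-finger transcription factor, had the most cluster hybrids. All 8 were with miR-543-3p, 6 in HM 2 and 2 in HM 3, and the WT libraries and HM 1 had 0. The 8 fragments were distinct in sequence and shared 27 bases, tgcgcactgaGAATGTTagtgggtggg, with the complement of the miR-543-3p seed in capitals. These reads were 29.6% of the 27 hybrid reads of Klf6, and 1 read of miR-367-3p fell on the same site. With a minimum of 5 reads a pair, the log2 fold change was 3.82 (SE 2.26, adjusted p = 0.383 by edgeR).

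Znrf2, an E3 ubiquitin ligase, had 6 hybrids, all with miR-300-3p, 1 in each WT library and 0, 3 and 0 in HM 1 to HM 3. The genotypes overlapped (log2 fold change -1.66, SE 1.31, adjusted p = 0.471 by edgeR). The 6 made up 60% of the 10 hybrid reads of Znrf2. The fragments shared 19 bases, agccaggatctgagttctg, and none held a complement of the miR-300-3p seed. The shared stretch begins 12 bases after GAGAGCT, the 7-base complement of bases 13 to 19 of miR-300-3p, which lay in 2 of the 6 fragments.

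Lnpep, which encodes the insulin-regulated aminopeptidase, was the only gene bound by 3 members, and its 6 reads came from 5 libraries. miR-485-3p gave 1 read each in WT 1, WT 2 and HM 2. miR-376b-3p gave 1 each in HM 1 and HM 3, and miR-300-3p 1 in HM 2. All 3 miR-485-3p fragments held the complement of the miR-485-3p seed. Of the 2 miR-376b-3p fragments, 1 held the complement of the miR-376b-3p seed. Another 9 genes were bound by 2 members, with 2 reads each. They included Lifr, the receptor of leukemia inhibitory factor (miR-667-3p in WT 1, miR-409-3p in HM 3) and Slc9a7, a sodium/proton exchanger bound by the similar miR-300-3p and miR-381-3p in HM 3 and HM 2. Lifr had 135 hybrid reads in all, of which the cluster held 1.48%.

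**Figure D3:**
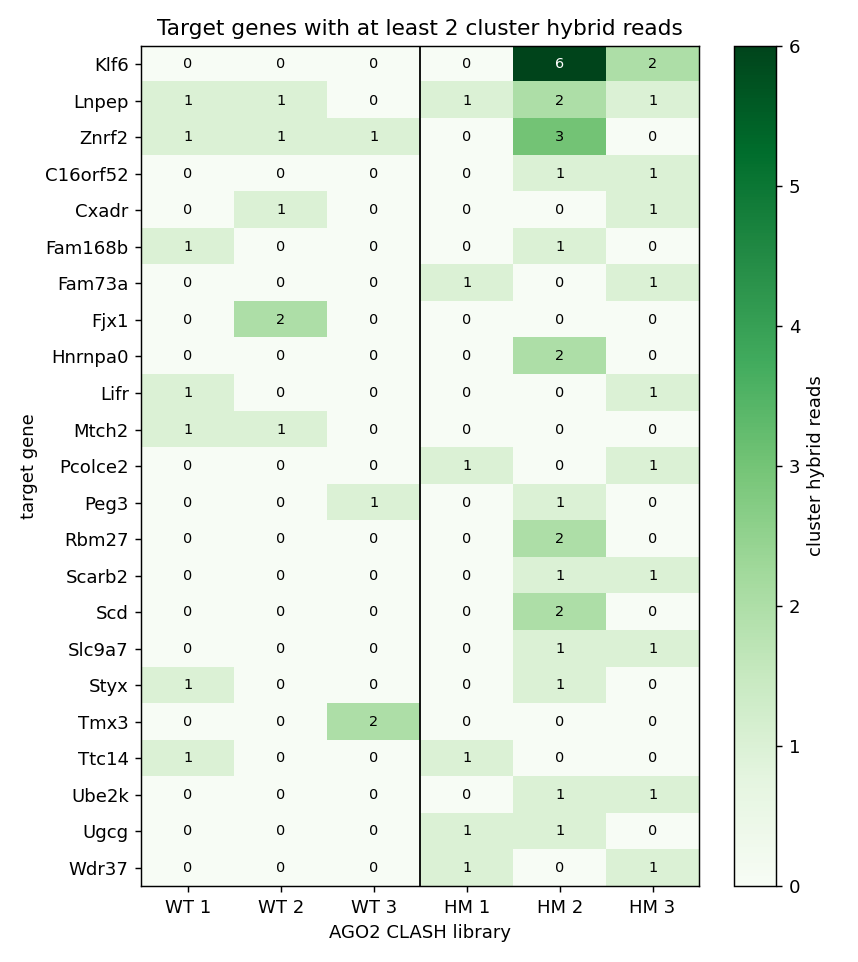
Cluster hybrid reads of target genes with at least 2 (rows, 1 gene left out) in the 6 libraries (columns); darker cells hold more reads. Klf6 stands out in HM 2 with 6 reads, Lnpep appears in 5 libraries and Znrf2 in 4.

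Of the 173 genes, 59 had a cluster hybrid in WT, and 8 had one in both genotypes, 13.6% of the WT and 6.56% of the HM genes: Cxadr, Fam168b, Lifr, Lnpep, Peg3, Styx, Ttc14 and Znrf2. Only 4 pairs were seen in both genotypes, namely miR-300-3p with Peg3 and Znrf2 and miR-485-3p with Lnpep and Ttc14. The other 3p hybrids, many more in number, shared 835 genes, 77.1% of their WT and 36.4% of their HM genes. At an equal depth of 19 reads a library, the cluster reached 18.5 ± 0.50 genes in WT and 18.6 ± 0.542 in HM (SD, n = 3 each, difference 0.102, exact permutation test, p = 1). Other 3p hybrids reached 18.3 and 18.5 genes at this depth, so the measure lay near its ceiling of 19 and could not separate the genotypes. At full depth the 78 reads of HM 2 fell on 67 genes.

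Total hybrids per gene, over all miRNAs, were tested in the same way with all hybrids as library size, and 57 of 344 genes (16.6%) passed. Of the 173 cluster targets 50 reached 10 reads, and 7 passed. Il6st, the gp130 receptor subunit of LIF signaling, was higher in HM (1 of 50, where 5.81% of all tested genes were higher), and Laptm4a, Fjx1, Fam60a, Rnf4, Nabp1 and Pank3 were lower (6 of 50, where 10.8% were lower). In each of these the cluster held 1 or 2 reads of the total, for example 2 of the 108 reads of Fjx1 and 1 of the 116 of Laptm4a.

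Listed gene groups were touched by few cluster hybrids. Of 38 WNT, TGF-beta, FGF and Hippo signaling genes with any hybrid, 5 (13.2%) had a cluster hybrid, each with 1 read in HM: Nodal, a TGF-beta family ligand of the early embryo, the receptors Acvr1b, Bmpr2 and Fzd5, and the WNT co-receptor Lrp6. Of 11 pluripotency genes, 2 had one, Nodal and the DNA methyltransferase Dnmt3a. Of 11 imprinted genes, Peg3, a paternally expressed zinc-finger gene, had 2 cluster reads of its 3, in WT 3 and HM 2. Among the other lists the numbers were 2 of 45 chromatin regulators (Brwd3 and Rest), 2 of 26 neuronal genes (Celf1 and Rbfox2), 1 of 26 cell cycle genes (Cdk19) and 1 of 18 miRNA pathway genes (Cnot6). The share over all genes was 5.41%.

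The fragments were next searched for the complement of the seed. A match to bases 2 to 7 was present in 120 of the 211 hybrids (56.9%). It was an 8mer, a match to bases 2 to 8 followed by A, in 45, a 7mer-m8, the same without the A, in 40, a 7mer-A1 (bases 2 to 7 and the A) in 31, and the 6 bases alone in 4. In fragments of other 3p hybrids of the same libraries, the same seeds matched 0.478% to 0.785% of the time. By library the share was 65.0%, 65.4% and 52.6% in WT and 57.7%, 52.6% and 57.1% in HM, and the genotypes overlapped (61.0% ± 7.25 against 55.8% ± 2.82, SD, n = 3 each, exact permutation test, p = 0.3). Without WT 3 they did not overlap, with a difference of -9.39 percentage points (exact permutation test, p = 0.1, the smallest possible), and with a 7-base match the difference was 2.80. Nor did they overlap without miR-300-3p, at -5.01 percentage points (exact permutation test, p = 0.1, the smallest possible). Without the miR-543-3p hybrids on Klf6, all of them in HM, the difference was -7.24 (exact permutation test, p = 0.3). Other 3p hybrids matched their own seeds in 56.0% to 63.2%. The cluster was higher in 3 of the 6 libraries and lower in 3, by -0.712 percentage points on average (SD 4.23, two-sided exact sign-flip test, p = 0.719). The study kept only pairs that TargetScan predicts, so each gene has a predicted site of its miRNA somewhere in its 3′ UTR, whether or not the fragment holds one.

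Members differed in how their hybrids matched. miR-543-3p had a seed match in 21 of 24 hybrids (87.5%), miR-376b-3p in 27 of 32 (84.4%) and miR-376a-3p in 6 of 7. By contrast, the miRNA with the most hybrids, miR-300-3p, had one in 8 of 38 (21.1%), and miR-485-3p in 4 of 11. The miR-300-3p fragments without a match included those of Papola and Wdr37, which hold CTTGTAT, the complement of the seed of the similar miR-381-3p. Whether such hybrids were assigned to the right member was not tested. Values in between were 10 of 15 for miR-323-3p, 9 of 19 for miR-409-3p and 5 of 10 each for miR-411-3p and miR-495-3p. The comparison with other 3p hybrids changed sign in 5 alternative settings and kept it in 10. Without miR-300-3p in the cluster, and with the other hybrids as before, the cluster exceeded them by 6.90 percentage points (sign-flip permutation test, p = 0.031, the smallest that 6 libraries allow). With miR-300-3p kept, it exceeded them by 4.00 with any 6-base window of bases 1 to 8, by 3.61 with the seed of the miRNA piece, by 0.30 without HM 2 and by 0.17 without WT 3, with sign-flip permutation p-values of 0.188 to 0.938. Among settings that kept the sign, the difference was -3.64 against all other hybrids (sign-flip permutation test, p = 0.0625). It was -1.55 without hybrids that hold undetermined bases and -0.90 with a 7-base match.

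For miR-485-3p, 5 of the 11 miRNA pieces began 1 base after the annotated start, and 4 of these 5 fragments matched the seed counted from that later base. Of all 91 hybrids without a match to bases 2 to 7, 18 held a 6-base match shifted by 1 base, 5 of them with miR-485-3p and 4 with miR-300-3p. The Ttc14 and Pcolce2 fragments match the miRNA from base 3. Over all members 189 of 211 pieces (89.6%) began at the annotated base and 13 began 1 base later.

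**Figure D4:**
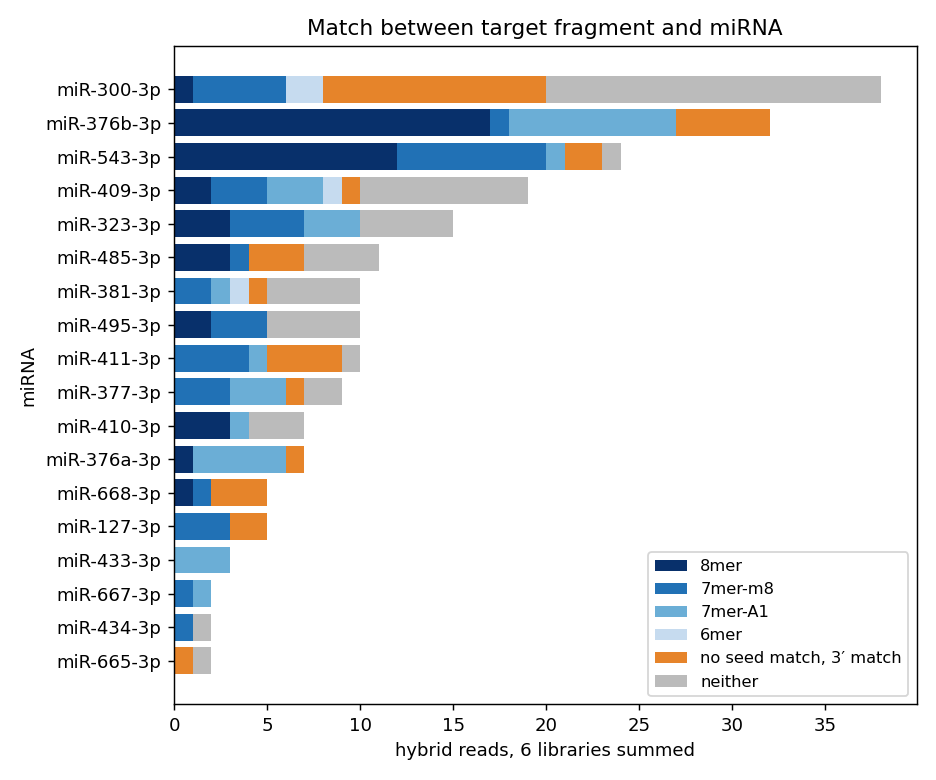
Hybrid reads of each cluster miRNA, summed over the 6 libraries, divided by the match in the target fragment: blue shades are seed matches, orange is a match of at least 6 bases to miRNA bases from 9 onward without a seed match, and grey is neither. miR-376b-3p and miR-543-3p are mostly blue, with 27 of 32 and 21 of 24, and miR-300-3p is mostly orange and grey, with 30 of 38.

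Of the 91 hybrids without a seed match, 36 (39.6%) held a complement of at least 6 consecutive bases to the miRNA from base 9 onward, called a 3′ match, against 15 of the 120 (12.5%) with a seed match. By library 20%, 26.9% and 26.3% of cluster hybrids had a 3′ match in WT and 26.9%, 26.9% and 16.7% in HM. Fragments of other 3p hybrids held the same matches in 3.30% to 4.67%, and other 3p hybrids held a 3′ match to their own miRNA in 11.2% to 14.2%. Pooled over its 18 members, the cluster was above both in each of the 6 libraries. Members differed, with a 3′ match in 5 of 5 hybrids of miR-668-3p, 5 of 10 of miR-411-3p and 7 of 32 of miR-376b-3p. It was present in 3 of 24 for miR-543-3p and 1 of 15 for miR-323-3p. None was found in the 10 hybrids of miR-495-3p or the 7 of miR-410-3p. The measure was chosen with the fragments in view and is given without a test.

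**Figure D5:**
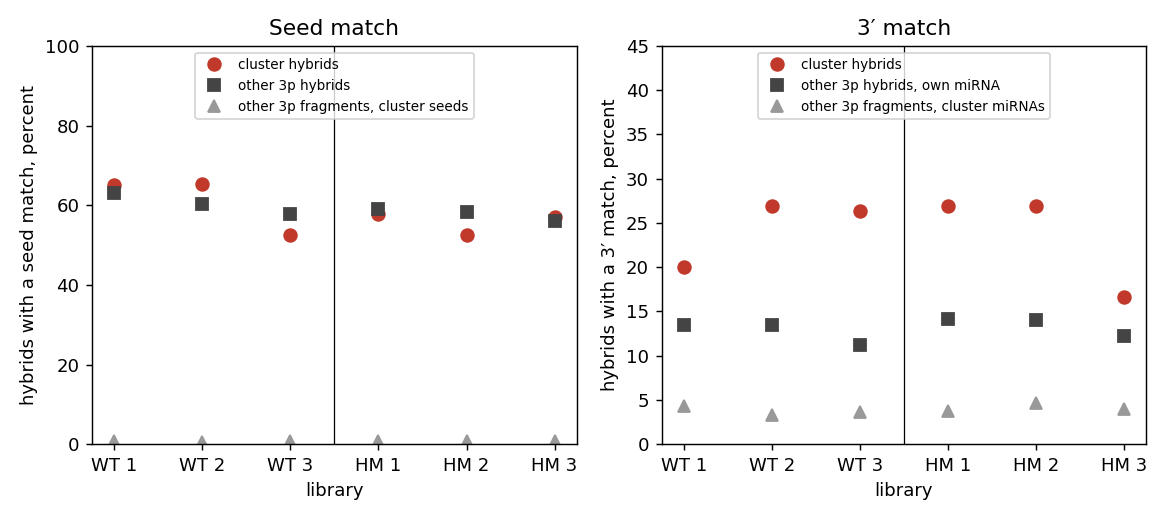
Percent of hybrids with a seed match (left) and with a 3′ match (right) in each library. Red circles are cluster hybrids, dark squares other 3p hybrids with their own miRNA, and grey triangles the share of other 3p fragments that hold the cluster's matches. Seed shares of cluster and other hybrids intermingle between 52.6% and 65.4%, and 3′ matches of the cluster lie at 16.7% to 26.9%, above 11.2% to 14.2%.

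Of single members, miR-300-3p had the most of these hybrids, with a 3′ match in 14 of 38 hybrids (36.8%) against 4.91% of other 3p fragments. The motif GAGAGC, searched on the fragment strand alone and complementary to bases 14 to 19 of miR-300-3p, was in 9 of its 30 hybrids without a seed match and in 0 of the 8 with one. It was in 0.568% of 11437 other 3p fragments. The 9 hybrids fell on 6 genes, C16orf52, H3f3b, Odf2l, Peg3, Zbtb37 and Znrf2. miR-381-3p, whose bases 14 to 19 are the same, had the motif in 2 of 10 hybrids. The miR-485-3p fragment on Ttc14 also holds it, within a complement of bases 12 to 18 of that miRNA. The motif was picked with the miR-300-3p fragments in view and was not counted for the remaining members. In the Peg3 fragment the complement ran over 9 bases, 14 to 22, and in the H3f3b fragment over 9 bases, 12 to 20. These letters describe the fragments and do not show that the bases were paired.

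In the fragments with a seed match, a median of 13 bases stood before it and 5 after it, and 60% had at most 6 bases after it, beside 62.7% in other 3p hybrids. Cluster fragments had a median length of 26 nt, against 23 nt. Their A and U content was 57.9%, 60.7% and 59.9% in WT and 58.9%, 58.3% and 59.9% in HM, against 57.3% to 59.4% in other 3p fragments. It was higher in 6 of 6 libraries, by 1.44 percentage points on average (SD 1.10, sign-flip permutation test, p = 0.031). Without the bases of the seed match the difference was -0.29 percentage points (sign-flip permutation test, p = 0.594). Seed bases could be taken out only where the miRNA had a reference sequence. This held for all cluster hybrids but for 10033 of 11437 other 3p hybrids.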

How the data were processed

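AGO2 CLASH hybrids of 3 WT and 3 HM libraries of P19 cells were analyzed. The authors named the miRNA of each hybrid with QuagmiR, aligned the target piece with Bowtie2 to 3′ UTRs of mouse coding genes and kept pairs predicted by TargetScan 8.0. Versions of the first 2 tools, the genome build and the treatment of PCR duplicates were not given in the sources used here. The deposited values are unscaled read counts per hybrid sequence. Fragments outside 3′ UTRs are therefore absent, and reads may not be independent molecules.

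The 18 members, the gene lists and the tests were chosen with earlier results of these data known. Genes named were those with the most cluster reads, pairs with at least 5 reads, genes bound by 3 or more members and list genes with a cluster hybrid. Others, such as the genes with GAGAGC, were chosen after their values were seen. Of the 173 target names, 153 matched a symbol and 15 a synonym in the RefSeq table (GRCm38.p6), and 5 matched none and were used as deposited. Seed matches of other 3p hybrids were computed for the 10033 of 11437 whose miRNA had a reference sequence.

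Reads were summed per miRNA, pair and gene and tested with edgeR 4.0.16 in R 4.3.3, with DESeq2 1.42.0 as an alternative. Features had at least 10 reads, and the threshold was an adjusted p of 0.05. Each SE of a log2 fold change was back-calculated, as its absolute value divided by the square root of the edgeR F statistic. The exact permutation tests over libraries were run in Python 3.11.15, and all tests were two-sided. In counts simulated for the 94 miRNAs, of 23 changed miRNAs the test called 13 at 4-fold and 22 at 16-fold, with 0 false calls. These miRNAs include many with far more reads than the tested members, and the spread between simulated replicates was set to a fixed value. The rates therefore do not say how often a change in a cluster member would be called. Genes at equal depth were computed with the hypergeometric formula. A count of 0 allows up to 3 counts, 0.0587% to 0.428% of the 3p hybrids of a library. Alternatives changed the library size, normalization, minimum of reads, seed definition and libraries used. 1 target gene is not reported here.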

Additional observations from a re-analysis of the deposited data

How the results depend on the processing

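The share of 3p hybrids kept its direction under every alternative run, at -1.02 to -0.339 percentage points, the smallest being without the 5 members that have no HM hybrid, an alternative chosen after seeing the data; leaving out each library gave -0.967 to -0.704. The share of all hybrids gave 0.269 to 0.503, and 0.365 to 0.433 without each library. The seed comparison of genotypes gave -9.39 to -3.02 without each library and turned to 2.80 with a 7-base seed match. It was -5.01 without miR-300-3p and -7.24 without the miR-543-3p hybrids on Klf6, the latter an alternative added after seeing the data. Against other 3p hybrids the seed difference gave -1.87 to 0.30 without each library, 6.90 without miR-300-3p, 4.00 with any 6-base window of bases 1 to 8 and 3.61 with the seed of the miRNA piece itself. It was -0.90 with a 7-base match and -1.55 without hybrids that hold undetermined bases. Set against all other hybrids, it was -3.64 (exact sign-flip p = 0.0625). Distinct genes differed by -0.144 to 0.409 without each library. The A and U difference was 1.17 to 1.69 without each library (p = 0.0625, the smallest that 5 libraries allow in the exact test), 1.48 with HM 1 and HM 2 as 1 replicate, 1.42 without fragments that hold undetermined bases, 1.23 against all other hybrids (exact p = 0.0938) and -0.29 without the bases of the seed match, an alternative added after seeing the data. The cause of these changes was not tested.

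The number of members called was 1 with at least 5 reads and 1 with no minimum, and 0 in each other setting. In both it was miR-127-3p, whose reads were all in WT 2 and WT 3. Called cluster target genes numbered 7 of 50 (16.6% of all tested genes passed), 11 with 3p hybrids as library size (20.1%), 3 with DESeq2 (4.07%), 4 of 13 with at least 30 reads (25.8%), 3 of 173 with no minimum (0.719%) and 4 to 5 without each library (6.98% to 14.2%), with 4 without WT 2, HM 2 or HM 3. Directions of members that were not called turned in some settings. With all hybrids as library size, log2 fold changes were 0.45 for miR-411-3p, 0.79 for miR-543-3p and 0.71 for miR-409-3p. With DESeq2 they were 0.23, 0.50 and 0.43, and with TMM 0.19 for miR-543-3p and 0.11 for miR-409-3p. Leaving out each library gave -1.24 to 0.54 for miR-411-3p, -0.87 to 0.0218 for miR-543-3p, -0.50 to 4.03 for miR-495-3p, -0.23 to 0.66 for miR-300-3p, -0.34 to 4.01 for miR-381-3p and -0.71 to 0.39 for miR-409-3p, and, with no change of sign, 0.18 to 4.73 for miR-323-3p, -2.58 to -0.61 for miR-485-3p and -1.20 to -0.78 for miR-376b-3p.

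The labels do not say whether equal replicate numbers mark a shared batch. Deviations of same-numbered libraries correlated at 0.11, -0.05 and 0.08, and those of the other pairs at -0.13 to 0.06. These values are too few and too small to tell whether the numbers pair the samples. With the replicate block, the differences in share were -0.846 and 0.401 (sign-flip p = 0.25, the smallest that 3 pairs allow in an exact test), the seed difference -5.21, the members called 0 and the target genes called 5 (9.88% of all tested genes passed). Depth limits what can be said of members with few reads, since 9 of 18 had under 10 in all.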
